A study of Citrus sinensis with 6 samples.

Results

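A group of 5 probe sets of the Affymetrix Citrus Genome GeneChip with names from the circadian clock and light regulation was followed through the self-pruning of sweet orange spring shoots. Self-pruning is the loss of the shoot tip at an abscission zone (AZ), which ends the growth of the shoot. The 5 probe sets were taken by their identifiers from the 30171 citrus probe sets on the array: 3 named LHY (Cit.19897.1.S1_s_at, Cit.17027.1.S1_s_at and Cit.29406.1.S1_s_at), 1 named constans-like 2 (Cit.17882.1.S1_s_at) and 1 named light-regulated protein (Cit.10673.1.S1_at). They had been chosen by their log2 signals and log2 changes over these same stages, so their levels are given as a description, with an error and with no test. All 5 had a value on every array and no filter on low signals was applied.

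The samples were shoot tips that included the AZ, from adult trees of 'Cara Cara' navel orange (Citrus sinensis) grown in the field under natural conditions, and all of them share this cultivar and tissue. Tips taken 3 days ahead of self-pruning are called stage 1, those taken at its start stage 2 and those from 7 days later stage 3. Each stage has 2 arrays, which the labels call biological replicates, and nothing ties them to separate trees, so errors and p-values measure the spread between these samples. The labels name the tissue as shoot meristems, although the tips also held young leaves and the AZ. The hour of sampling is not given in the sources used here, so stage and hour of the day cannot be told apart for genes that cycle each day. In such bulk tissue, fewer cells of a type and less RNA per cell cannot be told apart either.

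In plants, the circadian clock is built from transcription factors that repress each other at different times of the day. In Arabidopsis, LHY (LATE ELONGATED HYPOCOTYL) is a MYB-like factor that peaks around dawn and represses evening genes such as TOC1 and GIGANTEA, whose products act later in the day. CONSTANS-like proteins carry B-box zinc fingers, and their founding member, CONSTANS, links day length to flowering in Arabidopsis. The light-regulated protein known from rice is a chloroplast protein whose transcript follows light and the clock. Photoreceptors (phytochromes, cryptochromes and phototropins) and the ubiquitin ligase COP1 pass light signals to these genes.

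The 3 LHY probe sets do not stand for 3 established genes. Their array annotation gives all of them the same best protein match, an LHY protein, with e-values of 5e-39 for Cit.19897.1.S1_s_at, 8e-73 for Cit.17027.1.S1_s_at and 2e-64 for Cit.29406.1.S1_s_at. The ending s_at marks probe sets whose probes can match several similar transcripts, so the 3 may read overlapping RNA. The homologue names differ: Cit.19897.1.S1_s_at is named transcription factor lhy, and the other two are named homeodomain-like superfamily protein isoform 1. The primer pairs that the study listed for real-time PCR are shown for 2 of the transcripts, because they are the sequences listed for them. They are written 5′ to 3′ and none of their bases is marked.
Cit.17027.1 sense: cgtcatgcggttccaata
Cit.17027.1 antisense: gcctctactacgacggcta
Cit.29406.1 sense: aaactccatgccaacacc
Cit.29406.1 antisense: ccattatcctgaagtgcc
Each primer has 18 or 19 bases, and the 2 pairs share no primer. The pair listed for Cit.19897.1 is letter for letter the pair listed for another transcript, Cit.22550.1, and is not shown, since the transcript it belongs to is not settled.

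The 2 arrays of each stage were close to each other, with an SD of their difference over all probe sets of 0.125 to 0.130 on the log2 scale. The array also carries 60 reporter controls, whose highest signal was 5.67 at stage 1, 5.64 at stage 2 and 5.37 at stage 3. Its 23 random-sequence controls read higher, from 7.07 upwards with a median of 7.90, so the level that separates signal from background depends on which controls are used. As a sign of RNA quality, the 3′ probe set of actin exceeded its 5′ probe set by 1.87 to 1.94 on the stage 1 and stage 2 arrays and by 1.62 and 1.66 on those of stage 3. The same difference for ubiquitin was 0.18 to 0.28 on the earlier arrays and -0.11 and -0.18 at stage 3. The part of this shift in the results below was not tested.

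All 3 LHY probe sets were higher when self-pruning began and far lower 7 days after it. Cit.17027.1.S1_s_at read 9.56 and 9.62 on the stage 1 arrays, 10.88 and 10.86 on those of stage 2, and 4.84 and 5.10 on those of stage 3 (log2 signal). Its stages do not overlap, and stage 3 lies far below both others. Stage 2 exceeded stage 1 by 1.28 ± 0.092 (SE from limma, n = 2 arrays per stage), a 2.43-fold difference. The difference of stage 3 from stage 1 was -4.62 ± 0.092 and that of stage 3 from stage 2 was -5.90 ± 0.092. By size, the rise to stage 2 stands at place 96 among the rises of all 30171 probe sets. The differences that involve stage 3 end at signals in the range of the controls, which is described below.

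Cit.19897.1.S1_s_at read 7.48 and 7.49 at stage 1, 8.80 and 8.77 at stage 2, and 4.59 and 4.51 at stage 3. Cit.29406.1.S1_s_at read 6.97 and 7.05, then 8.18 and 8.18, then 4.24 and 4.07. Both thus had the order of Cit.17027.1.S1_s_at, with no overlap between any 2 stages. Stage 2 differed from stage 1 by 1.30 ± 0.035 for Cit.19897.1.S1_s_at and by 1.17 ± 0.066 for Cit.29406.1.S1_s_at (n = 2 arrays per stage). Stage 3 differed from stage 1 by -2.94 ± 0.035 and -2.85 ± 0.066, and from stage 2 by -4.23 ± 0.035 and -4.03 ± 0.066. The rises to stage 2 of the 3 LHY probe sets were therefore within 0.13 of each other.

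At stage 3 the LHY signals had reached the range of the controls. On both stage 3 arrays, all 3 LHY probe sets read below the highest reporter control of that array (5.37 and 5.25), and below every random-sequence control. With that reporter signal taken as the lowest readable level, Cit.17027.1.S1_s_at was at least 19.4-fold lower at stage 3 than at stage 1, Cit.19897.1.S1_s_at at least 4.52-fold lower and Cit.29406.1.S1_s_at at least 3.25-fold lower. These bounds differ mainly as the stage 1 signals do. How far each transcript fell below the bound, and whether the 3 fell to different degrees, was not measurable. Against stage 2 the bounds were at least 47.2-fold, 11.1-fold and 7.32-fold lower. By the random-sequence controls, Cit.29406.1.S1_s_at was not above the lowest control (7.07) at stage 1 either. Cit.19897.1.S1_s_at was above that lowest control at stage 1 but under their stage 1 median (7.83). The stage 1 signals of Cit.17027.1.S1_s_at (9.56 and 9.62) were above that median but under the highest random-sequence control of the stage (10.28). All the bounds given thus hold only with the highest reporter control as the floor.

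The constans-like 2 probe set had the same order of stages as LHY. Cit.17882.1.S1_s_at read 8.44 and 8.37 at stage 1, 9.65 and 9.71 at stage 2, and 6.30 and 6.38 at stage 3. Its groups did not overlap, and at stage 3 it stayed above every reporter control but below every random-sequence control (lowest 7.31). Stage 2 exceeded stage 1 by 1.28 ± 0.045, and stage 3 differed from stage 1 by -2.06 ± 0.045 (n = 2 arrays per stage). The difference of stage 3 from stage 2 was -3.34 ± 0.045.

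The light-regulated protein did not share this order. Cit.10673.1.S1_at read 9.76 and 9.83 at stage 1, 11.44 and 11.44 at stage 2, and 11.96 and 11.95 at stage 3. Each later stage lay above the one before it without overlap. Stage 2 exceeded stage 1 by 1.64 ± 0.034, or 3.12-fold, the largest of the 5 rises, at place 42 of all probe sets. Stage 3 exceeded stage 1 by 2.16 ± 0.034 and stage 2 by 0.51 ± 0.034 (n = 2 arrays per stage). So all 5 probe sets were higher at stage 2, by 2.25-fold to 3.12-fold, while at stage 3 it alone of the 5 was above its stage 1 level.

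**Figure D1:**
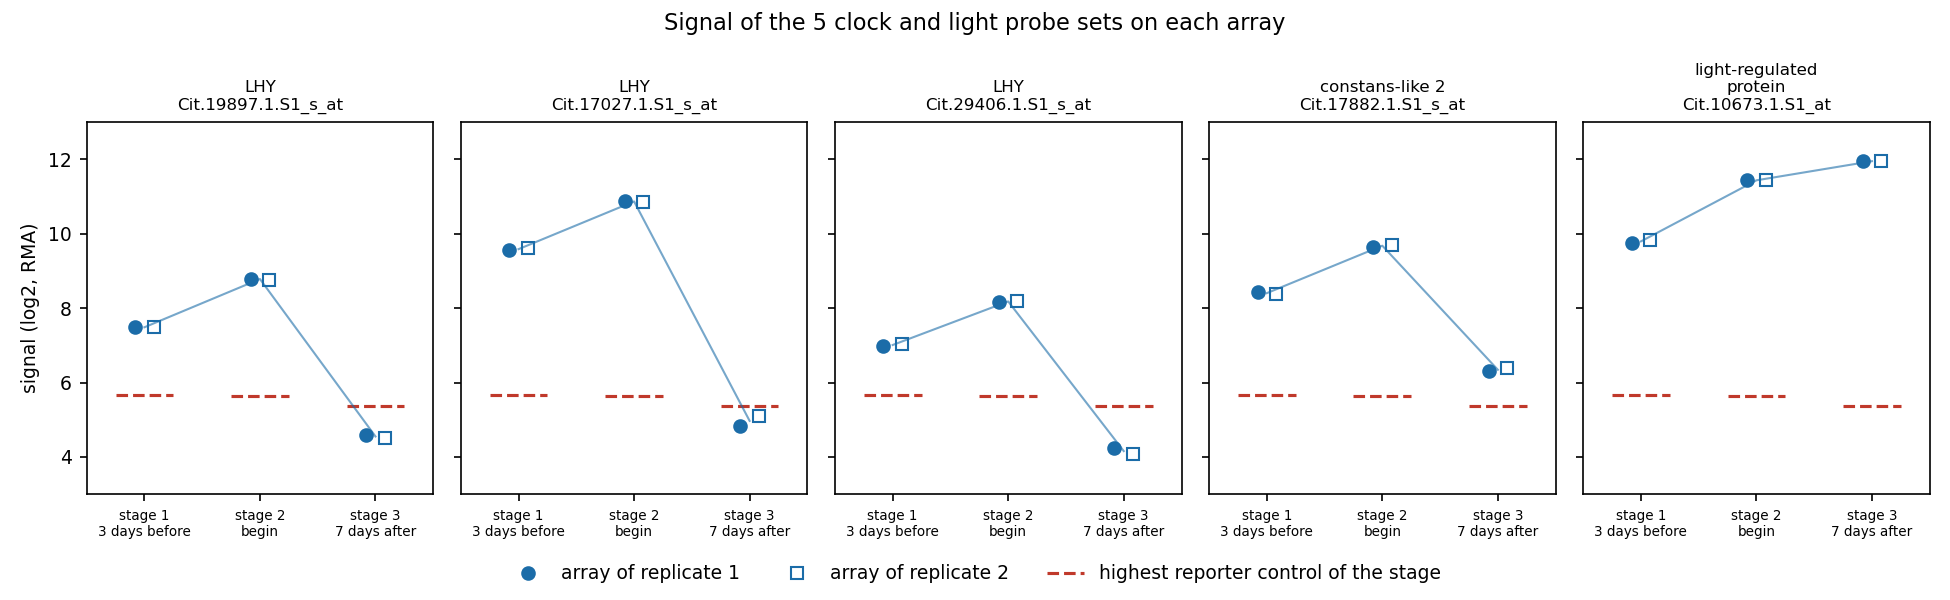
Log2 signal (vertical axis) of the 5 probe sets on each of the 6 arrays by stage (horizontal axis), with a line through the stage means and a dashed line at the highest reporter control of the stage. The 3 LHY probe sets rise to stage 2 and end at 4.07 to 5.10, under the highest reporter control (5.37), constans-like 2 ends at 6.30 and 6.38, and the light-regulated protein climbs to 11.95 and 11.96.

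Few probe sets of the array had the order of LHY at this size. Irrespective of any test, 229 probe sets were at least 2-fold higher at stage 2 than at stage 1, and all 5 described here are among them. Of the 229, 23 were also at least 2-fold lower at stage 3 than at stage 1, and 4 of these are the LHY and constans-like 2 probe sets. Another 152 were at least 2-fold higher at both later stages, as the light-regulated protein was. The 5 had been chosen by their changes over these stages, so their presence in these counts follows from that choice and is no result. The other 19 of the 23 include Cit.2042.1.S1_at (transcription factor asg4-like), Cit.24994.1.S1_at (named non-phototro on the array, a shortened name) and a pair of probe sets spelled peudo-respon and peudo-respons, which are described below. They also include 4 probe sets of a regulator of chromosome condensation (RCC1) and BTB domain protein. These were picked after their values had been seen.

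Other probe sets with the same best protein match as a member did not all behave like it. Another probe set with the LHY match, Cit.1393.1.S1_at (e-value 8e-75), read 4.62 and 4.48 at stage 1, 4.69 and 4.58 at stage 2, and 4.34 and 4.25 at stage 3. Stages 1 and 2 overlap (log2 difference 0.08 ± 0.070, adjusted p = 0.403 from limma), and it fell by 0.25 on the log2 scale from stage 1 to stage 3 (adjusted p = 0.0288). All of its signals lie under the highest reporter control, so it was not shown to read any RNA above background. That small fall lost its call without stage 1 replicate 1 (-0.18), without stage 3 replicate 1 (-0.30), without stage 3 replicate 2 (-0.21), when each array was centred on its median (-0.25) and in limma without moderation.

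Both probe sets that share the match of constans-like 2 also read near the reporter controls. Cit.28649.1.S1_at read 4.65 and 4.81 at stage 1, 5.0 and 5.02 at stage 2, and 4.59 and 4.65 at stage 3, with a rise of 0.28 ± 0.060 to stage 2 (adjusted p = 0.0217 from limma). The call was lost without stage 2 replicate 1 (0.29) or replicate 2 (0.27) and after quantile normalization (0.25) or in limma without moderation. Cit.26946.1.S1_at read 4.42 and 4.28, then 4.48 and 4.33, then 4.68 and 4.51, and no change passed the test (adjusted p = 0.688 at stage 2 and 0.0733 at stage 3, against stage 1). With the replicate number as a block, its difference of 0.24 at stage 3 passed (adjusted p = 0.00199), and it also passed after quantile normalization (0.25).

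The second probe set of the light-regulated protein moved with the first. Cit.10672.1.S1_s_at, named CCR pro on the array like its partner (CCR pr), read 10.37 and 10.40 at stage 1, 11.57 and 11.62 at stage 2, and 11.64 and 11.66 at stage 3. Both later stages lie above stage 1 without overlap. Its rise at stage 2 was 1.21 ± 0.030 (adjusted p = 9.06e-05 from limma) and it stood 1.27 ± 0.030 above stage 1 at stage 3 (adjusted p = 8.49e-06, n = 2 arrays per stage). Between stages 2 and 3 its difference of 0.05 ± 0.030 did not pass (adjusted p = 0.176), although it passed after quantile normalization (0.12) and with a trend in the prior variance.

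The other clock and light genes were taken from the array by name, in 5 lists with 72 probe sets apart from the 5 above. Of these, 66 match by their name on the array and 6 only by the homologue name given to genes that the study had chosen as differentially expressed in these samples, so those 6 are no independent evidence of a direction. Against stage 1, 34 of the 72 rose and 6 fell at stage 2 while 32 missed the threshold, an adjusted p under 0.05 from limma, with a median log2 change of 0.12. Over all 30171 probe sets, 6080 (20.2%) rose and 6493 (21.5%) fell, with a median of 0.01. This balance of all probe sets depends on the scale: with each array centred on its median, 7260 rose and 4714 fell, and the list then had 37 rises and 2 falls. The 40 calls of the list dropped to 25 when either stage 2 replicate 1 or stage 2 replicate 2 was left out. Among the 66 matched on the array, 29 rose and 5 fell.

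Again against stage 1, 13 of the 72 rose and 36 fell at stage 3 while 23 missed the threshold, with a median of -0.18. Over all probe sets, 9012 (29.9%) rose and 10841 (35.9%) fell, with a median of -0.04. Among the 66 matched on the array, 10 rose and 33 fell. Between stages 2 and 3, 12 of the 72 rose and 41 fell (median -0.30), beside 8768 rises (29.1%) and 11021 falls (36.5%) over all probe sets (median -0.05). With a change of at least 2-fold required as well, the list had 4 rises and 0 falls at stage 2, where 0.759% of all probe sets rose and 1.15% fell. At stage 3 it had 6 rises and 8 falls against stage 1, where 7.56% of all probe sets rose and 6.08% fell. From stage 2 to stage 3 it had 5 rises and 15 falls, beside 7.14% and 4.76%. The 3 comparisons share arrays and are not independent of each other.

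**Figure D2:**
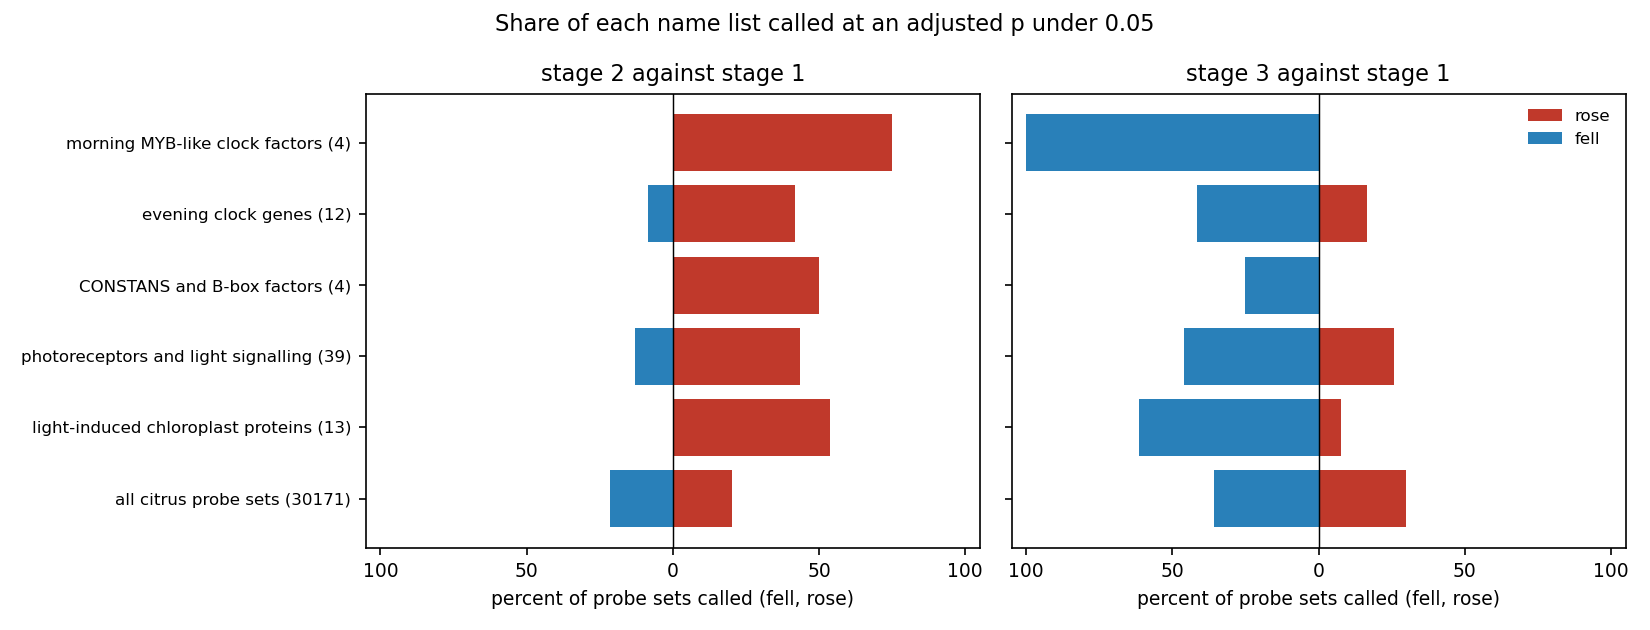
Percent of the probe sets of each name list that rose (to the right) or fell (to the left) at an adjusted p under 0.05, for stage 2 and stage 3 against stage 1, with the number of probe sets in parentheses and all citrus probe sets as the last bar. At stage 2 the rises of the lists exceed the 20.2% of all probe sets, and at stage 3 the morning factors all fell (4 of 4).

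The list of morning MYB-like factors, the family of LHY, was short. Of the 4 probe sets besides the members, 3 rose at stage 2 (median 0.54) and all 4 fell at stage 3 (median -1.22). Of all probe sets, 20.2% rose at stage 2 and 35.9% fell at stage 3. Without Cit.2042.1.S1_at, which the study's own choice brought in, the medians of the other 3 were 0.30 and -0.44. One of them is Cit.1393.1.S1_at, described above, which did not pass at stage 2 and was not above the reporter controls. Cit.2042.1.S1_at, similar to ASG4 of the REVEILLE family of clock factors in Arabidopsis, read 7.97 and 7.91 at stage 1, 9.24 and 9.21 at stage 2, and 5.60 and 5.76 at stage 3. It rose by 1.29 ± 0.064 (adjusted p = 4.31e-04 from limma) and then changed by -2.26 ± 0.064 against stage 1 (adjusted p = 1.37e-05), with no overlap.

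Cit.1392.1.S1_at, whose array name begins with circadi, read 5.51 and 5.70, then 6.26 and 6.53, then 3.64 and 3.56. Its homologue name is homeodomain-like superfamily protein isoform 2, that of 2 LHY probe sets being isoform 1. It rose by 0.79 ± 0.12 (adjusted p = 0.00719 from limma) and changed by -2.01 ± 0.12 at stage 3 (adjusted p = 1.16e-04). Its stage 3 signals lie under the reporter controls' highest level, so the size of that fall is uncertain. Cit.5514.1.S1_at, also circadi, has no homologue name, so only that cut name places it among the morning factors. It moved less, from 9.38 and 9.32 to 9.58 and 9.71 and then to 8.90 and 8.92. The rise of 0.30 ± 0.054 (adjusted p = 0.0133) lost its call without stage 1 replicate 2 (0.27), and the change of -0.44 ± 0.054 at stage 3 passed (adjusted p = 0.00179).

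The evening clock genes did not all share 1 order. Of 12 probe sets, stage 2 had 5 rises and 1 fall with 6 below the threshold (median 0.08, or 0.12 for the 11 matched by array name), and stage 3 had 2 rises and 5 falls with 5 below it (median -0.11), both against stage 1. The 11 matched by array name had 5 rises and 0 falls at stage 2, and 1 rise and 5 falls at stage 3. From stage 2 to stage 3, 1 of the 12 rose and 8 fell (median -0.30), and all 8 falls were among the 11. Over all probe sets, 29.1% rose and 36.5% fell in that comparison. Against stage 1 these shares were 20.2% and 21.5% at stage 2, and 29.9% and 35.9% at stage 3. Cit.35927.1.S1_s_at, protein phytoclock 1, a MYB-like member of the evening complex in Arabidopsis, went against LHY. It read 6.64 and 6.70 at stage 1, 6.28 and 6.25 at stage 2, and 8.65 and 8.68 at stage 3. It fell by 0.40 on the log2 scale at stage 2 (SE 0.035, adjusted p = 0.00163 from limma) and rose by 1.99 ± 0.035 at stage 3 (adjusted p = 4.86e-06). It too entered the list only through the study's choice.

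GIGANTEA, a clock protein that promotes flowering in Arabidopsis, was measured by Cit.1664.1.S1_s_at at 12.48 and 12.48, then 12.97 and 12.96, then 12.82 and 12.81. Its rise was 0.48 ± 0.024 at stage 2 (adjusted p = 4.36e-04 from limma) and 0.33 ± 0.024 at stage 3 (adjusted p = 2.54e-04), so that both later stages lie above stage 1. FKF1, a blue-light receptor that acts with GIGANTEA in Arabidopsis (Cit.7358.1.S1_at), read 6.21 and 6.33, then 6.75 and 6.73, then 6.12 and 6.19. Its rise of 0.47 ± 0.051 at stage 2 passed (adjusted p = 0.00304), and its difference of -0.12 ± 0.051 at stage 3 did not (adjusted p = 0.107), but passed without stage 1 replicate 1 (-0.18) and after quantile normalization (-0.16).

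Pseudo-response regulators, to which TOC1 belongs, read near the reporter controls in 3 of the probe sets named by the rule. Cit.11891.1.S1_at (pseudo-) read 5.56 and 5.58, then 6.45 and 6.37, then 5.11 and 5.19, a rise of 0.83 ± 0.045 (adjusted p = 5.22e-04 from limma) and a change of -0.43 ± 0.045 at stage 3 (adjusted p = 0.00101). Its stage 1 and stage 3 signals lie under the highest reporter control of the stage (5.67 and 5.37), so that change compares levels not shown to be above background. Cit.37580.1.S1_at (pseudo-respon) read 5.28 and 5.40, then 5.06 and 5.09, then 4.50 and 4.82. Its difference of -0.26 ± 0.12 at stage 2 did not pass (adjusted p = 0.146), though it did without either stage 3 array or with just the 4 arrays compared, and the change of -0.68 ± 0.12 at stage 3 passed (adjusted p = 0.00574), with all 6 signals under the highest reporter control of their stage. Cit.11892.1.S1_at, whose array name begins with timing, as in timing of CAB expression (TOC1), read 5.41 and 5.57, then 5.96 and 5.93, then 5.41 and 5.15. The rise of 0.45 ± 0.10 (adjusted p = 0.0267) lost its call without any 1 of the stage 1 and stage 2 arrays (0.37 to 0.54) and in limma without moderation, and at stage 3 the difference of -0.21 ± 0.10 did not pass (adjusted p = 0.148) except without stage 3 replicate 1 (-0.34). Its stage 1 signals lie under the highest reporter control, and 1 of its stage 3 signals does. A pair with higher signals was chosen after its values had been seen. Cit.30781.1.S1_s_at, named timing of CAB on the array, read 11.32 and 11.30, then 11.31 and 11.31, then 11.004 and 11.011. It fell by 0.30 on the log2 scale at stage 3 (adjusted p = 3.7e-04 from limma), while its difference of 0.0039 at stage 2 did not pass (adjusted p = 0.915). Cit.2913.1.S1_s_at (pseudo-) was between 10.90 and 11.01 on all arrays, with a fall at stage 3 (log2 difference -0.09, adjusted p = 0.0468) and no call at stage 2 (-0.02, adjusted p = 0.577).

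A further 4 probe sets carry the misspelled array name peudo-response and had been missed by the list. They were added after their values were seen. Cit.35879.1.S1_s_at read 9.26 and 9.28, then 10.31 and 10.31, then 7.82 and 7.82, a rise of 1.04 ± 0.024 (adjusted p = 8.2e-05 from limma) and a change of -1.44 ± 0.024 at stage 3 (adjusted p = 4e-06). Cit.26823.1.S1_at read 7.41 and 7.49, then 8.60 and 8.61, then 6.07 and 6.31, with changes of 1.15 ± 0.086 (adjusted p = 0.00113) and -1.26 ± 0.086 (adjusted p = 2.0e-04). Both are above the highest reporter control on all 6 arrays and keep their stages apart. Of the 4, 3 rose at stage 2 and 4 fell at stage 3. With them the list had 37 rises and 6 falls among 76 probe sets at stage 2, and 13 rises and 40 falls at stage 3.

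The CONSTANS and B-box list held 4 probe sets, of which 2 rose at stage 2 (median 0.09) and 1 fell at stage 3 (median -0.26). Array-wide, 20.2% rose at stage 2 and 35.9% fell at stage 3. Cit.23322.1.S1_s_at, named CONSTANS-like, read 12.16 and 12.14 at stage 1, 12.28 and 12.26 at stage 2, and 11.47 and 11.46 at stage 3. The fall of 0.68 on the log2 scale at stage 3 passed (SE 0.027, adjusted p = 3.26e-05 from limma), in the direction of constans-like 2. The rise of 0.12 ± 0.027 at stage 2 (adjusted p = 0.0238) lost its call when any 1 of the 6 arrays was left out (0.11 to 0.13) or when just the 4 arrays compared were fitted. No probe set of this list but the member changed by 2-fold in any comparison.

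Photoreceptors and light signalling formed the longest list. Of 39 probe sets, stage 2 had 17 rises and 5 falls with 17 below the threshold (median 0.11, or 0.04 for the 35 matched by array name), and stage 3 had 10 rises and 18 falls with 11 below it (median -0.13), both against stage 1. The shares over all probe sets were 20.2% rises and 21.5% falls at stage 2, and 29.9% and 35.9% at stage 3. The COP1-like ubiquitin ligase, measured by a pair of probe sets of 1 transcript, had the order of LHY. Cit.14457.1.S1_s_at read 8.26 and 8.28, then 8.80 and 8.82, then 5.23 and 5.34, with a rise of 0.55 ± 0.043 (adjusted p = 0.00127 from limma) and a change of -2.98 ± 0.043 at stage 3 (adjusted p = 3.37e-06). Cit.14457.1.S1_at read 8.20 and 8.35, then 8.89 and 8.89, then 5.45 and 5.82. Its change of -2.64 ± 0.13 at stage 3 passed (adjusted p = 7.37e-05), while the rise of 0.61 ± 0.13 at stage 2 (adjusted p = 0.0226) lost its call without any 1 of the stage 1 and stage 2 arrays (0.53 to 0.69) and in limma without moderation. At stage 3, Cit.14457.1.S1_s_at lay under the highest reporter control on 1 of the 2 arrays.

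Genes of phototropism, the bending towards light, went both ways. Some were chosen after their values had been seen. Called up at stage 2 and down at stage 3 were Cit.26260.1.S1_at (phototropin, 0.37 and -0.92), Cit.2182.1.S1_s_at (RPT2, 0.29 and -1.21) and Cit.5578.1.S1_s_at (NPH3 fa, 0.15 and -0.69). By contrast, Cit.6373.1.S1_at (phototr) and Cit.19764.1.S1_s_at (phototropic-re) rose by 1.72 and 1.36 at stage 3, with no call at stage 2. Cit.24994.1.S1_at, named non-phototro on the array as is NPH3, which acts with phototropins in Arabidopsis, read 8.77 and 8.81, then 10.01 and 10.04, then 7.46 and 7.55. It rose by 1.24 ± 0.042 (adjusted p = 1.7e-04 from limma) and changed by -1.28 ± 0.042 at stage 3 (adjusted p = 1.96e-05). Root phototropism protein 3-like (Cit.7068.1.S1_at) read 7.22 and 7.39, then 9.19 and 9.28, then 10.30 and 10.29. With rises of 1.93 ± 0.069 (adjusted p = 1.95e-04) and 2.99 ± 0.069 (adjusted p = 8.21e-06), it had the order of the light-regulated protein and not that of LHY. COP1-interacting protein 7 (Cit.25568.1.S1_at) read 6.63 and 6.76, then 7.33 and 7.30, then 8.64 and 8.73, and rose by 0.62 ± 0.061 (adjusted p = 0.00226) and 1.99 ± 0.061 (adjusted p = 1.68e-05). The COP1-like, root phototropism and COP1-interacting probe sets are the remaining 4 that entered through the study's choice.

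Some of the light-induced chloroplast proteins had the order of LHY at a smaller size. Of 13 probe sets, 5 rose at stage 2 and also fell at stage 3 against stage 1, 1 rose at both (Cit.10672.1.S1_s_at) and 3 had no call at either. That rise and fall was not particular to this list. It was called in 12 of the 39 photoreceptor and light signalling probe sets and 2 of the 12 evening clock genes. Of the morning factors 3 of 4 had it, and of the CONSTANS and B-box list 1 of 4. Among the markers described below, it was called in 7 of 17 for green tissue, 2 of 23 for senescence and 0 of 8 for meristems and young organs. The share over all probe sets was not counted for it, so these counts cannot be set against the whole array. In all, the 13 had 7 rises and 0 falls at stage 2 (median 0.15), and 1 rise and 8 falls at stage 3 (median -0.37). For all probe sets the shares were 20.2% and 21.5% at stage 2, and 29.9% and 35.9% at stage 3. Cit.23474.1.S1_at, a chlorophyll a/b binding protein of the light-harvesting complex, read 8.25 and 8.32, then 8.94 and 8.98, then 6.35 and 6.33, with changes of 0.67 ± 0.038 (adjusted p = 5.75e-04 from limma) and -1.95 ± 0.038 (adjusted p = 5.77e-06). An early light-induced protein, of a family that protects chloroplasts in strong light (Cit.26060.1.S1_at), read 7.17 and 7.31, then 7.82 and 7.88, then 6.11 and 6.20. It rose by 0.61 ± 0.064 and changed by -1.08 ± 0.064 at stage 3 (adjusted p = 0.00262 and 1.23e-04).

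A pair of further chlorophyll-binding probe sets were named by the rule. Cit.35246.1.S1_at read 7.13 and 7.12, then 7.86 and 7.97, then 6.39 and 6.60, with changes of 0.79 ± 0.083 and -0.63 ± 0.083 (adjusted p = 0.0027 and 0.00221 from limma). Cit.20588.1.S1_at, whose signals were higher, read 11.99 and 12.04, then 12.05 and 12.11, then 11.17 and 11.25. Its difference of 0.07 ± 0.042 at stage 2 did not pass (adjusted p = 0.239), and it fell by 0.80 on the log2 scale at stage 3 (SE 0.042, adjusted p = 8.35e-05).

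**Figure D3:**
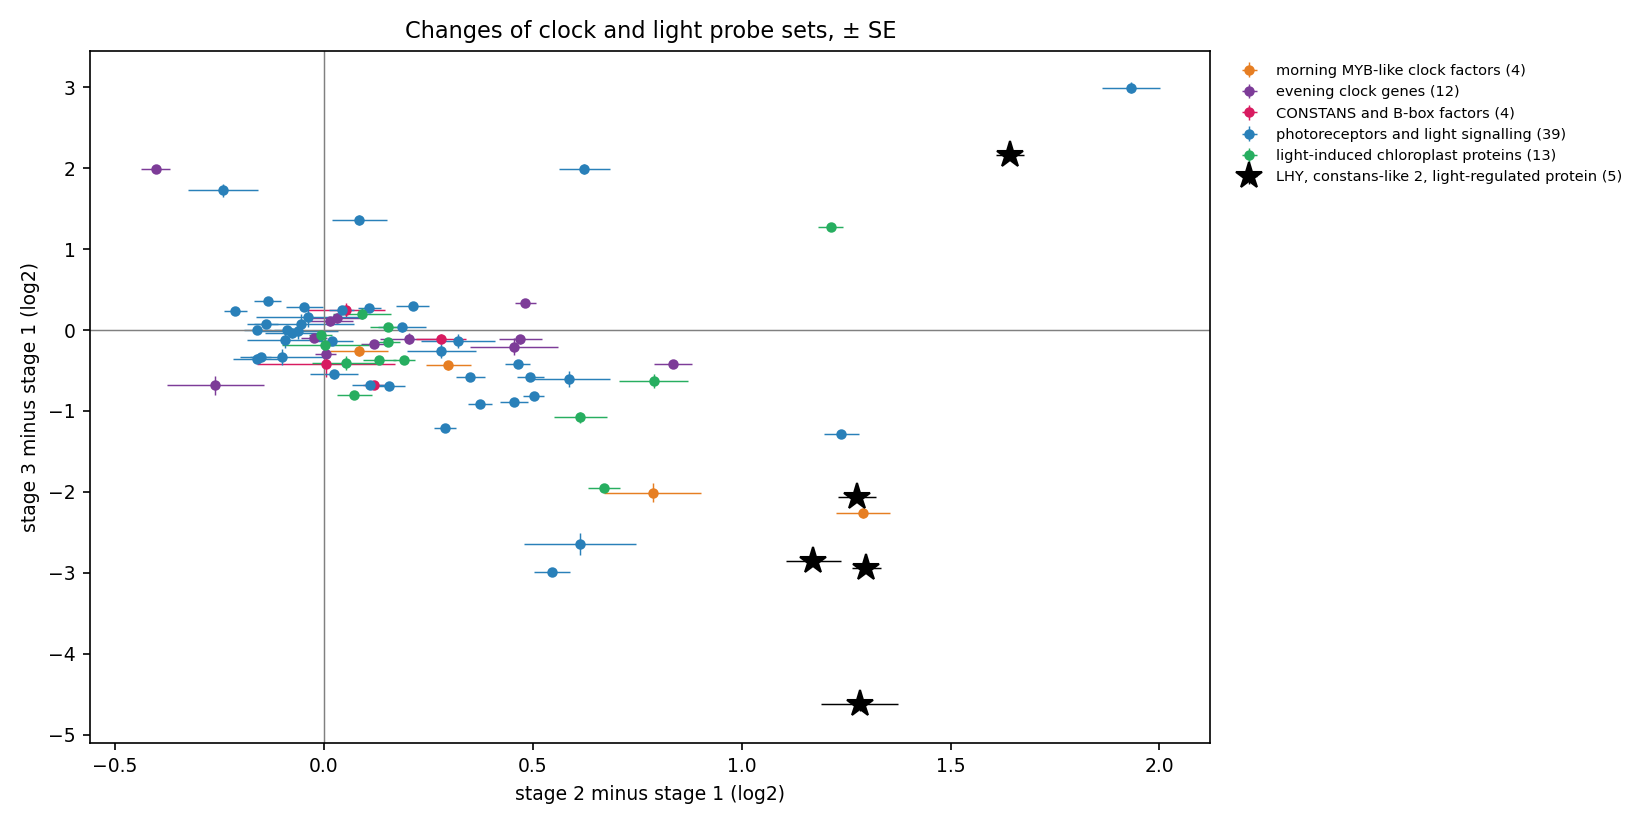
Log2 change at stage 2 (horizontal axis) against log2 change at stage 3 (vertical axis), both from stage 1, for the 72 clock and light probe sets by list and for the 5 members (stars), with bars of ± SE. Because both axes are taken from the same stage 1 arrays, the slope of the cloud is not a result. The members lie at 1.17 to 1.64 on the horizontal axis, 4 of them between -2.06 and -4.62 on the vertical one and the light-regulated protein at 2.16.

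Probe sets whose profile was most like that of LHY were sought over the whole array, by the root mean square (RMS) difference of signals centred on their own mean over the 6 arrays. Since the LHY signals at stage 3 lie under the highest reporter control, the depth of the LHY profile there is that of the signal and not of a measured level, and every RMS value and place below depends on it. Among the 3 LHY probe sets, Cit.19897.1.S1_s_at and Cit.29406.1.S1_s_at differed by an RMS of 0.094, and Cit.17027.1.S1_s_at differed from them by 0.80 and 0.87. Constans-like 2 differed from the 3 by 0.36 to 1.21 and the light-regulated protein by 2.26 to 3.11. Closest to the mean LHY profile was Cit.17377.1.S1_at, which has no name in the annotation, with an RMS of 0.14. It read 9.84 and 9.83, then 11.01 and 11.03, then 6.53 and 6.68. Unlike LHY, it stayed above the reporter controls at stage 3, with a change of -3.23 ± 0.055 from stage 1. Its stage 3 signals were still below every random-sequence control of that stage (lowest 7.31).

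The next 9 had an RMS of 0.42 to 0.59. Of the clock and light lists, 2 probe sets were among the 10, the COP1-like Cit.14457.1.S1_s_at (0.49) at place 5 and the ASG4-like Cit.2042.1.S1_at (0.57) at place 9. The others are a HXXXD-type acyl-transferase-like protein (Cit.34654.1.S1_at, 0.42), an RCC1 and BTB domain protein (Cit.29521.1.S1_s_at, 0.48), a probe set named beta-1 (Cit.10811.1.S1_s_at, 0.48), a predicted protein (Cit.17300.1.S1_s_at, 0.50), a leucine-rich repeat receptor-like kinase (Cit.15470.1.S1_at, 0.51), a putative ATP-binding protein (Cit.34684.1.S1_at, 0.55) and the unnamed Cit.34812.1.S1_s_at (0.59). Of the 10, Cit.34684.1.S1_at lay under the highest reporter control on both stage 3 arrays. They differ in how they reach that likeness. The RCC1 and BTB protein (1.15), the predicted protein (1.07), the ASG4-like factor (1.29) and Cit.17377.1.S1_at (1.18) were higher by over 1 log2 unit at stage 2, whereas the rest differed from stage 1 by -0.13 to 0.55 and shared mainly the low stage 3. Their changes were used to choose them and are not tested.

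**Figure D4:**
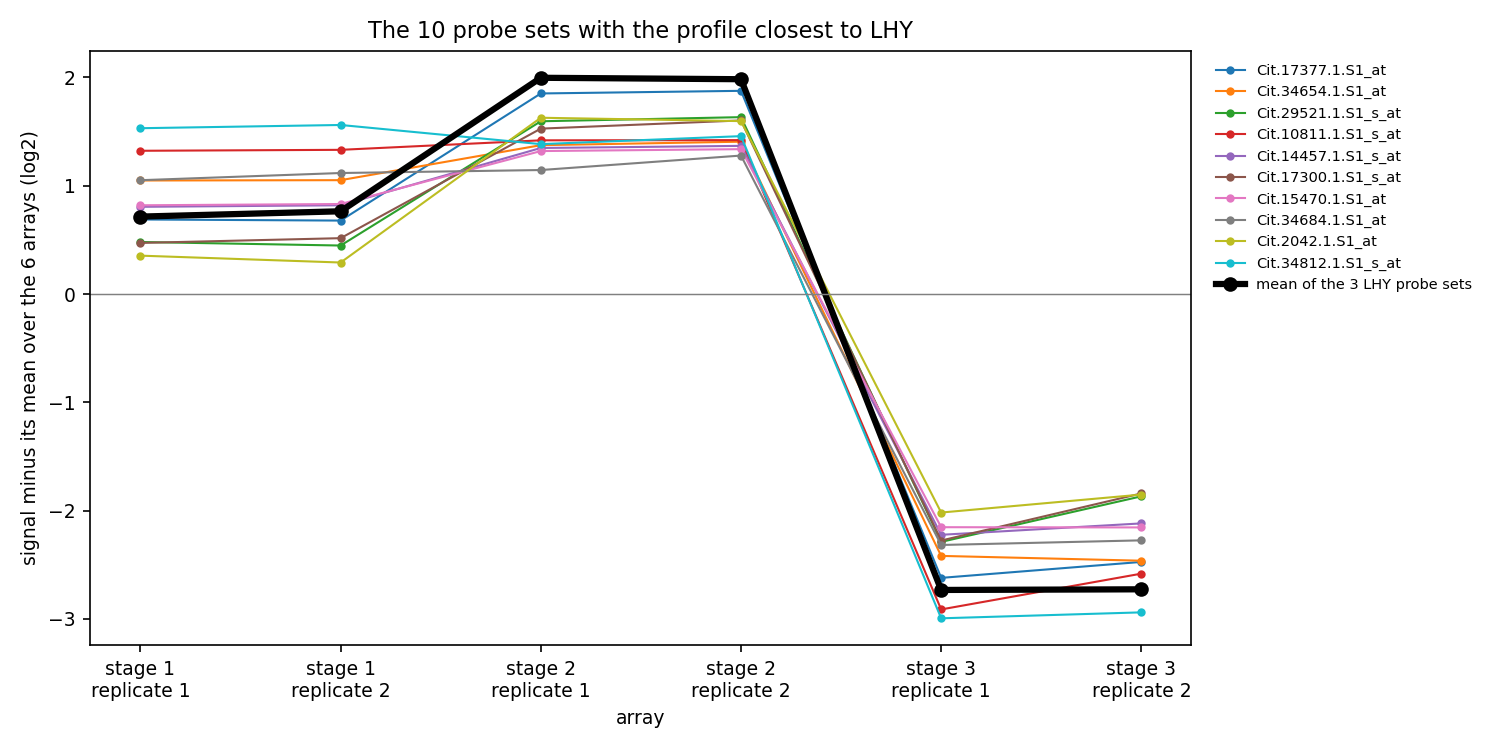
Signal of the 10 closest probe sets on each of the 6 arrays, each minus its own mean over the arrays (vertical axis, log2), with the mean of the 3 LHY probe sets as the thick black line. All 10 are lowest at stage 3, and Cit.17377.1.S1_at (RMS 0.14) lies closest to the black line.

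Markers of the cells in the sampled tips also moved over the stages, and their part in the changes of LHY was not tested. Of 8 markers of meristems and young organs, stage 3 against stage 1 had 5 falls and 2 rises, with 1 below the threshold (median -0.78). Over all probe sets, 35.9% fell and 29.9% rose in that comparison (median -0.04). The summed linear signal of the 8 was 7433 to 7598 at stage 1, 6798 to 6876 at stage 2 and 3839 to 3897 at stage 3. The AINTEGUMENTA-like Cit.3972.1.S1_at, of a family active in dividing young tissue, had a mean of 9.48 at stage 1 and 5.06 at stage 3, and the meristem genes named knotted rose (0.30 and 0.70). Markers of meristems were thus present at stage 1, and a YABBY-like probe set (Cit.30373.1.S1_at, means of 4.15 to 4.49) was at the level of the reporter controls at every stage.

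Of 17 markers of green tissue, there were 14 rises and 0 falls at stage 2 and 3 rises and 7 falls at stage 3, with summed linear signals of 104400 to 106500 at stage 1, 120400 to 122400 at stage 2 and 106100 to 106600 at stage 3. Their median log2 change was 0.23 at stage 2 and -0.10 at stage 3, both against stage 1. Of 23 markers of senescence and cell death, there were 10 rises and 5 falls at stage 2 (median 0.19) and 12 rises and 5 falls at stage 3 (median 0.24), and their summed linear signal went from 37550 and 37800 at stage 1 to 41670 and 41870 at stage 2 and to 47030 and 47080 at stage 3. Beside these counts, 20.2% of all probe sets rose and 21.5% fell at stage 2. At stage 3 against stage 1, 29.9% rose and 35.9% fell. The part of these marker lists in the results was not tested either.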

How the data were processed

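RNA of 6 samples was hybridized to 1 Affymetrix Citrus Genome GeneChip each. The deposited values are log2 signals, which the authors made by robust multi-array average (RMA), and their methods also name Microarray Suite 5.0. RMA draws low signals towards a floor, which shrinks changes that start or end there. A second table deposited by the authors holds stage means on the log2 scale, which equal the means of the 2 arrays to within rounding. It also holds the authors' own p-values, ratios and fold changes, which were not used. No column of per-sample values was left unmapped.

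Of the array's 30395 probe sets, 224 controls and sequences other than citrus genes were left out. A limma model (version 3.58.1, R 4.3.3) of the other 30171 used all 6 arrays and no covariates, with Benjamini-Hochberg adjustment over all of them. A probe set is said to rise or fall at an adjusted p under 0.05 from limma. With 2 arrays per stage the number of arrays limits the precision, and the methods name 3 groups of trees but do not tie arrays to them. Replicates of the same number deviated together (correlation of the difference between replicates 0.463 to 0.561 between stages), so a fit with the replicate number as a block was run beside it. On simulated data for 2 arrays per stage, limma recovered 0.52 of changes of 0.5 log2 units and 0.82 of those of 1. The simulation planted far fewer changes than were called here and drew independent noise for each array. These shares therefore do not measure the power in these data.

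Array names have a median of only 7 letters, being cut short. Some cut names kept in the lists, such as circadi, pseudo-, far-red and phototr, can fit several genes. The lists may therefore hold wrong genes or miss right ones. Homologue names come from the study's table of differentially expressed genes. The 5 members, the lists and the rules were chosen with earlier results of these data known. Named were the members, the probe sets that share a member's best match, the 10 closest to LHY, and from each list up to 4 of the largest changes that passed without overlap, at stage 2 and at stage 3 against stage 1. Alternative settings were centring on the array median, quantile normalization, unmoderated limma, limma with a variance trend, the block, a fit of just the 4 arrays compared, leaving out probe sets of low mean signal, keeping the controls, dropping each array in turn, and other call rules. Lists by array names only, and with misspelled names added, were chosen after seeing the data. Figures and tables were made with Python 3.11.15. Probe, protein and promoter sequences were not used here.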

Additional observations from a re-analysis of the deposited data

How the results depend on the processing

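Of the changes of the 5 members, none turned direction when arrays were centred on their median, quantile normalized or left out in turn. Median centring gave 1.35 and -4.28 for Cit.19897.1.S1_s_at (stage 2 against stage 1, stage 3 against stage 2), 1.32 for Cit.17882.1.S1_s_at (stage 2) and 1.69 and 0.47 for Cit.10673.1.S1_at. Quantile normalization gave -2.90 for Cit.19897.1.S1_s_at at stage 3 against stage 1, and 2.20 (stage 1) and 0.56 (stage 2) for Cit.10673.1.S1_at. With 1 array left out, Cit.19897.1.S1_s_at ranged from -2.97 to -2.90 at stage 3 against stage 1 and from -4.27 to -4.20 against stage 2, Cit.17027.1.S1_s_at from -4.75 to -4.49 and from -6.03 to -5.77, Cit.29406.1.S1_s_at from -2.94 to -2.77 and from -4.11 to -3.94, and Cit.10673.1.S1_at from 1.61 to 1.68 at stage 2 and from 2.12 to 2.19 at stage 3, both against stage 1.

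With at least 2-fold required, all probe sets had 575 calls at stage 2, 4114 at stage 3 against stage 1 and 3591 from stage 2 to stage 3, and the clock and light list had 4, 14 and 20. Calls that needed 4-fold and a raw p of up to 0.001 numbered 131, 1029 and 851 over all probe sets and 0, 5 and 7 in the list, fewer by construction. With 1 array left out the calls of the list ranged from 25 to 36 at stage 2. The other settings, the replicate block among them, kept each count of calls within 1.5 times. Of the probe sets named by the rule, the block changed the call of none but Cit.26946.1.S1_at, which passed at stage 3 (0.24 against stage 1). The difference of that probe set at stage 2, which did not pass, turned to -0.013 without stage 1 replicate 2 and to -0.024 without stage 2 replicate 1, with a range of -0.024 to 0.13 over the arrays left out. Among changes named by the rule, limma without moderation lost the call of 4. They were those of Cit.11892.1.S1_at, Cit.14457.1.S1_at and Cit.28649.1.S1_at at stage 2 and of Cit.1393.1.S1_at at stage 3, all against stage 1. By Pearson correlation in place of the RMS difference, the 10 probe sets most like LHY shared 0 with those given: 238 of 4892 candidates had a correlation over 0.99 across the 6 arrays, which fall into 3 stages, so that this measure hardly separates them. Signal over background limits the stage 3 levels of LHY and the probe sets read near the reporter controls.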
